A study of Homo sapiens with 12 samples.

Results

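The genes described are the 28 small-subunit cytosolic ribosomal protein genes, taken as the rows of the all-gene table whose name equals a member's symbol exactly, without pseudogenes and paralogs. They are 28 of 58884 rows, and all 28 were among the 16537 genes that passed the filter on low counts. RNA was sequenced from cultured human liver cancer cells in 4 groups of 3 libraries. The knockout groups were HCC-LM3 cells and Huh-7 cells infected with a guide RNA against METTL5, and their references were wild-type HCC-LM3 cells and wild-type Huh-7 cells without treatment. The question was how transcript levels differ between METTL5 knockout and wild type in each line. HCC-LM3 is a metastatic hepatocellular carcinoma line, while Huh-7 cells come from a hepatocellular carcinoma and are known for hepatocyte gene expression. The labels name no clone, control guide, culture or batch, so effects of infection and of the knockout cannot be told apart, and p-values measure the spread between libraries that may be technical replicates.

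The small ribosomal subunit reads the messenger RNA: its head, body and platform hold the decoding site and the channel through which the message moves. Its protein genes are among the most transcribed genes of growing cells, and many begin transcription at a C followed by a run of pyrimidines, the terminal oligopyrimidine (TOP) start through which LARP1 and mTOR signalling govern their translation. METTL5 methylates an adenosine in the RNA of this same subunit, so the genes encode the protein partners of the enzyme's substrate.

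The libraries held 17495280 to 26415554 counts. METTL5 had 0 counts in all 6 knockout libraries, against 268, 327 and 325 in wild-type HCC-LM3 and 237, 258 and 169 in wild-type Huh-7. Wild-type HCC-LM3 replicate 1 stood apart: the chi-square of counts per gene was 34.9 and 28.8 against the other replicates, which differed from each other by 4.01. The TMM factors that scale libraries to a common set of genes ran from 1.27 to 1.31 for the HCC-LM3 knockout, 1.33 to 1.51 for its wild type, 0.491 to 0.510 for the Huh-7 knockout and 1.06 to 1.10 for its wild type. In place of library totals alone, they moved the median log2 fold change of all genes by 0.12 in HCC-LM3 and by 1.10 in Huh-7. The 12 hepatocyte markers summed to 0.76 to 1.11 TPM in HCC-LM3 knockout and 0.53 to 0.63 TPM in HCC-LM3 wild type, so these defining markers were near 0 in that line. In Huh-7 they summed to 15300 to 15480 TPM in knockout and 18850 to 21260 TPM in wild type, with all 12 over 1 TPM. Fibroblast markers summed to 0.84 to 2.14 TPM in Huh-7 knockout and 9.66 to 10.45 TPM in Huh-7 wild type, and leukocyte markers to 23.1 to 24.9 TPM in Huh-7 knockout and 46.8 to 50.6 TPM in Huh-7 wild type. Under TMM scaling in the same line, 4 of 6 tested fibroblast markers were called lower and 0 higher (median log2 fold change -2.20), while of 4 tested leukocyte markers CD14 and CD68 were called higher and LYZ lower (median 0.63), so the direction of CD14 and CD68 turned with the scale. The part of these markers in the results was not tested. In bulk RNA, fewer cells of a type and less RNA per cell cannot be told apart.

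The start of transcription is shown for the members at the ends of the Huh-7 response and for both ubiquitin-fold fusion genes, because it is the sequence through which this gene set is known to be governed. Windows of 30 bases, 10 before the RefSeq start and 20 from it on GRCh38.p14, were found for 25 of the 28 members, and none for RPS2, RPS15A and RPS20. Capitals mark the unbroken pyrimidine run that begins with a C at the start.
RPS29: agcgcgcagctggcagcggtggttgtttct
RPS27: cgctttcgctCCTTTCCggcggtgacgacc
RPS19: ccccgtcgttCCCTTTCCCCTggctggcag
RPS4X: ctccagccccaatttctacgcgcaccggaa
RPS3A: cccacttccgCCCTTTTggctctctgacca
RPS6: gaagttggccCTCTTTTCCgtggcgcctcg
RPS24: aatcgtggttCTCTTTTCCTCCTTggctgt
RPS27A: ggcgttcttcCTTTTCgatccgccatctgc
FAU: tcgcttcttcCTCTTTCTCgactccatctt

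The windows lie at chr14:49598691-49598720 on the minus strand (RPS29), chr1:153990752-153990781 plus (RPS27), chr19:41860245-41860274 plus (RPS19), chrX:72277229-72277258 minus (RPS4X) and chr4:151099618-151099647 plus (RPS3A). The others lie at chr9:19380217-19380246 minus (RPS6), chr10:78033853-78033882 plus (RPS24), chr2:55232678-55232707 plus (RPS27A) and chr11:65122115-65122144 minus (FAU). RPS27A has 3 listed starts and RPS19 has 2, of which the start with the longest run is shown. A C start with a run of at least 5 pyrimidines was present in 19 of the 25 members, against 5.14% of 27305 genes with a window. The run was longest in RPS24, with 14 bases. RPS29 and RPS4X had no such run at their only listed RefSeq start, and whether they also begin elsewhere was not examined. In the wider window of 250 bases before and 50 after the start, both strands searched, CCGGAA was present in 15 of 25 members and 20.1% of all genes, AAGATGG in 4 members and 7.11% and TATAAA in 2 members and 13.99%. A palindrome of TCTCG joined to its reverse complement was present in 2 members and 0.51% of all genes. The 19 members with a TOP-like run at a listed start had a median log2 fold change of 0.15 in HCC-LM3 and 2.12 in Huh-7. The 6 with a shorter run or none at the listed start had 0.12 in HCC-LM3 and 2.07 in Huh-7.

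Per length, in the authors' TPM, the members spanned about the same range in both HCC-LM3 groups and a wider one in Huh-7. RPS27, a zinc finger protein of the body, had the highest mean TPM in every group: 8585 ± 100.3 in HCC-LM3 knockout, 8870 ± 323.6 in HCC-LM3 wild type, 17410 ± 349.1 in Huh-7 knockout and 8163 ± 368.3 in Huh-7 wild type (SD, n = 3 each). RPS2, which lines the entry of the message channel, came second in each group. The lowest member was RPS28 in both HCC-LM3 groups, RPS24 in Huh-7 knockout and RPS3A in Huh-7 wild type. The highest mean TPM was 11.0 times the lowest in HCC-LM3 knockout and 10.5 times in HCC-LM3 wild type, against 107 times in Huh-7 knockout and 33.5 times in Huh-7 wild type. Of the 27 pairs of neighbours in this order, the replicate ranges overlapped in 13 pairs in HCC-LM3 knockout, 16 in HCC-LM3 wild type, 11 in Huh-7 knockout and 18 in Huh-7 wild type, so much of the order within a group lies within the replicate spread. For 5 members, RPS10, RPS14, RPS20, RPS23 and RPS24, the deposited length was over 2 times the median length of their coding transcripts (GENCODE annotation).

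**Figure D1:**
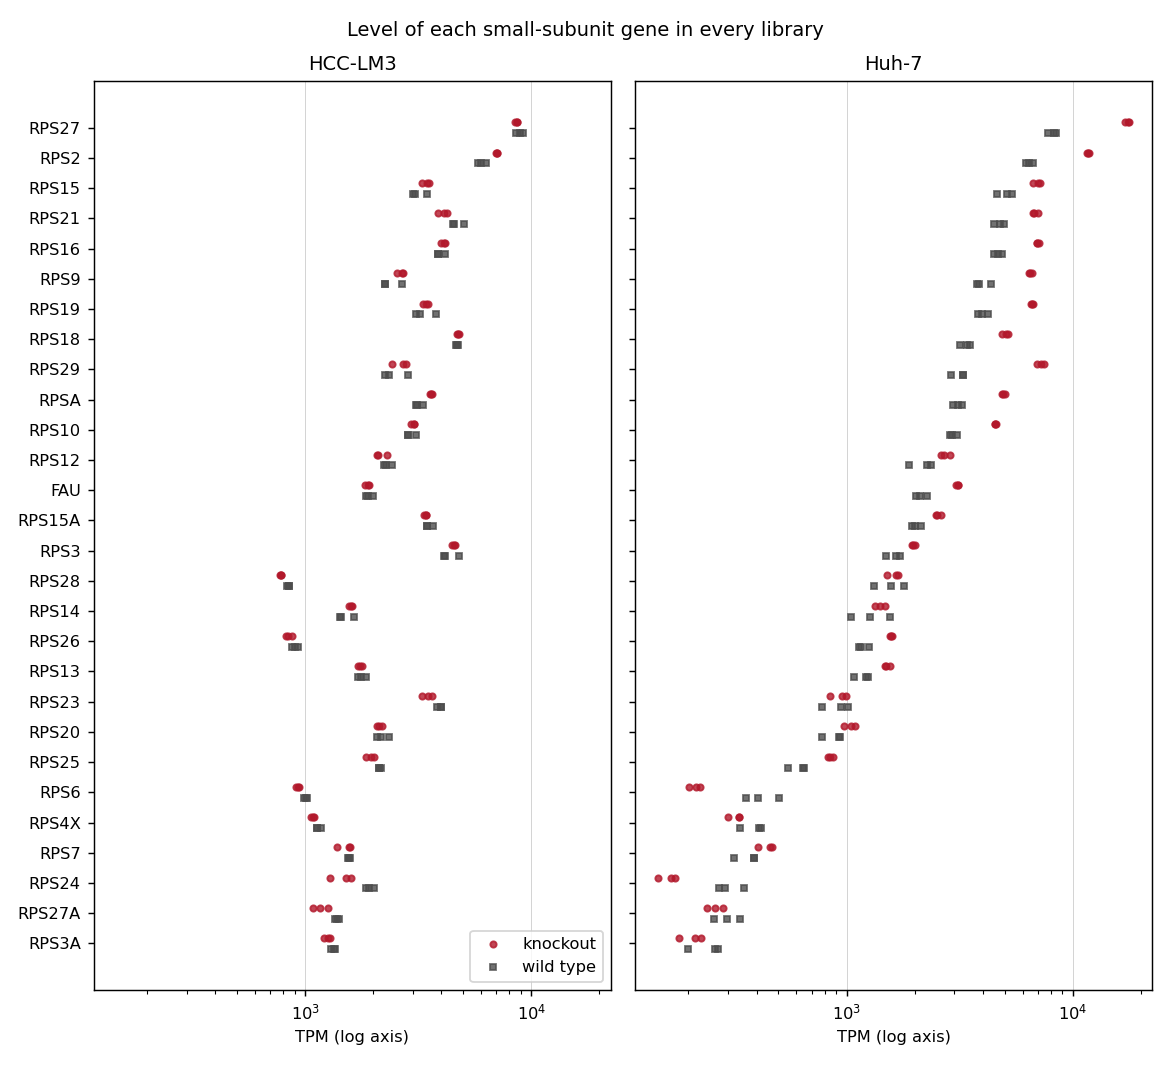
TPM (log axis) of each of the 28 members in every library, knockout (red circles, upper of each pair) and wild type (grey squares, lower), HCC-LM3 on the left and Huh-7 on the right, ordered by the mean in Huh-7 wild type. RPS27 is highest in all 4 groups, and RPS24 and RPS6 sit lower in Huh-7 knockout than in Huh-7 wild type, while RPS29 and RPS2 sit higher.

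Together the members held a larger share of the RNA in Huh-7 knockout than in Huh-7 wild type, and about equal shares in both HCC-LM3 groups. In Huh-7 the share of all counts was 5.95, 5.84 and 5.76% in the knockout libraries, against 2.69, 2.77 and 2.49% in the wild-type libraries. The groups did not overlap: the mean was 5.85 ± 0.0946% in knockout and 2.65 ± 0.144% in wild type (SD, n = 3 each), a ratio of 2.21, with p = 0.1 in the two-sided exact permutation test, the smallest p that 3 against 3 can give. As a share of TPM the ratio was 1.59, with 10.8 ± 0.127% in knockout and 6.76 ± 0.276% in wild type. In HCC-LM3 the share of counts was 2.67, 2.69 and 2.83% in knockout, against 2.88, 2.48 and 2.52% in wild type. These groups overlapped, with wild-type replicate 1 above every knockout library (exact permutation p = 0.5; means 2.73 ± 0.0862% and 2.63 ± 0.216%, SD, n = 3 each).

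**Figure D2:**
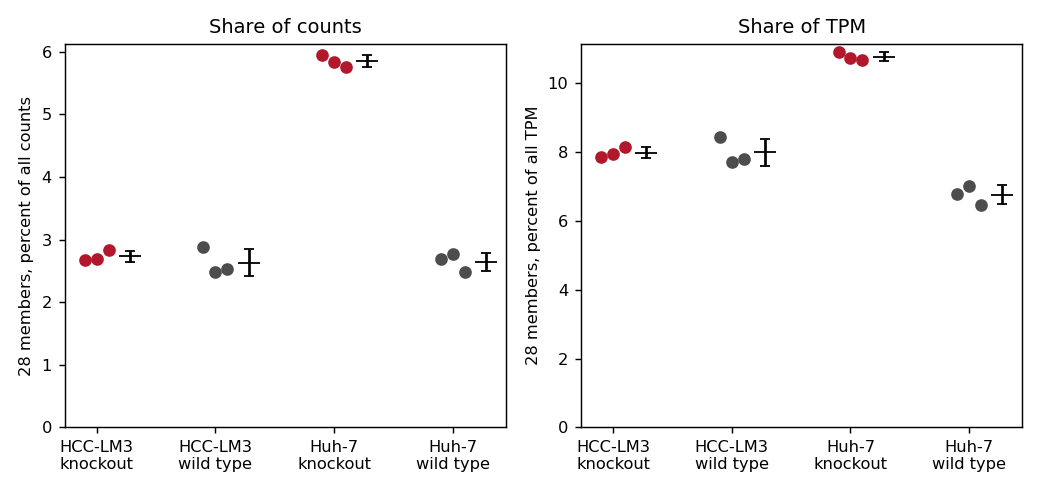
Share of all counts (left) and of all TPM (right) held by the 28 members, in percent, 1 point per library, with the group mean and SD in black. The Huh-7 knockout libraries lie at 5.76 to 5.95% of counts, above the 2.49 to 2.77% of Huh-7 wild type, while the HCC-LM3 groups overlap.

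In Huh-7 all 28 members rose in the knockout under TMM scaling, where 31.7% of all tested genes were called higher and 43.2% lower; with library totals alone 26 were called higher (background 12.1%) and RPS24 and RPS6 lower (background 65.3%). In TMM-scaled levels the knockout libraries of each of the 28 lay above all wild-type libraries, where 32.3% of all genes did so and 44.2% lay below without overlap. The log2 fold changes ran from 0.76 to 2.74 with a median of 2.10, beside a median of -0.30 over all genes. With library totals the members' median was 0.99 and that of all genes -1.40. The members thus stood 2.40 above the median gene under both scalings, and each of the 28 lay above it. That match is fixed in advance, because these scalings differ only by a constant factor for each library. No median over all genes is given for the fits with offsets below. A call means an adjusted p under 0.05 in edgeR's quasi-likelihood test with Benjamini-Hochberg adjustment over all genes. The knockout libraries also differed in what kind of transcript they held. This was measured over the tested protein-coding genes, without the members and the mitochondrially encoded genes. The mean transcript length behind a count was 1196 to 1208 bases in knockout and 1673 to 1737 bases in wild type. The mean GC content was 55.5 to 55.6% in knockout and 54.5 to 54.7% in wild type. With offsets per library for GC content and deposited gene length, 20 members were called higher (background 17.2%) and RPS15, RPS21 and FAU lower (background 44.2%), with a median of 0.55. With the median length of the coding transcripts in place of the deposited one, 28 were called higher (background 23.0%, and 41.6% lower), with a median of 1.40, the lowest being RPS15 at 0.60 and the highest RPS29 at 2.30. With offsets for deposited length alone, 21 were called higher (background 24.7%) and RPS6 and RPS27A lower (background 42.4%).

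RPS29, a small zinc finger protein of the head, gave the largest log2 fold change in Huh-7. It had 1387, 1326 and 1186 TMM-scaled CPM (counts scaled by the library total and its TMM factor) in knockout, against 189, 196 and 200 in wild type. The groups stood far apart, with a log2 fold change of 2.74 ± 0.134 (SE; edgeR adjusted p = 1.06e-15) or 6.67-fold. RPS27 had 5922, 5636 and 5391 TMM-scaled CPM in knockout, against 926, 814 and 896 in wild type. All knockout libraries lay above all wild-type libraries here too, with a log2 fold change of 2.69 ± 0.114 (SE; edgeR adjusted p = 1.26e-19). RPS2 (chr16:1962052-1964860, minus strand, GRCh38) had 26278, 26765 and 25021 TMM-scaled CPM in knockout, against 4583, 4624 and 4391 in wild type, again without overlap. Its log2 fold change was 2.52 ± 0.114 (SE; edgeR adjusted p = 3.98e-19), although rows named as RPS2 pseudogenes held 6.82 to 8.75% as many counts as RPS2, so a part of its reads may be shared with them. RPS19, the head protein most often mutated in Diamond-Blackfan anaemia, had a log2 fold change of 2.36 ± 0.113 (edgeR adjusted p = 1.50e-18), which was 0.03 with offsets for GC content and deposited length (adjusted p = 0.652).

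At the other end under TMM stood RPS24 and RPS6, whose direction in Huh-7 depended on the scaling and whose place in the order depended on the offsets. RPS24, a body protein also mutated in Diamond-Blackfan anaemia, had 195, 165 and 181 TMM-scaled CPM in knockout, against 105, 120 and 95.5 in wild type. Under TMM the knockout libraries were all higher, with a log2 fold change of 0.76 ± 0.112 (SE; edgeR adjusted p = 3.27e-07). With library totals alone, RPS24 had 96.6, 80.7 and 92.3 CPM in knockout, against 111, 132 and 102 in wild type. On that scale all knockout libraries were lower, with a log2 fold change of -0.35 (edgeR adjusted p = 0.00415). With offsets for GC content and deposited length, the RPS24 value was 1.45 (adjusted p = 4.43e-06), above the members' median, and with coding-transcript length it was 1.02 (adjusted p = 4.76e-07), below it. RPS6, the member phosphorylated by S6 kinases downstream of mTOR, had 708, 609 and 671 TMM-scaled CPM in knockout, against 360, 395 and 323 in wild type. The groups did not overlap, with a log2 fold change of 0.88 ± 0.101 (SE; edgeR adjusted p = 1.45e-09), while with library totals alone the groups overlapped and the log2 fold change was -0.23 (adjusted p = 0.0127). With length offsets RPS6 was at -0.22 (adjusted p = 0.0104), with GC content and deposited length at 0.56 and with GC content and coding-transcript length at 1.08. In TPM, RPS6 had 225, 202 and 215 in knockout, against 408, 502 and 358 in wild type, and stood lower in all knockout libraries. RPS4X and RPS24 did so too, whereas 20 members stood higher in all knockout libraries and 5 overlapped. No share of all genes apart in TPM is given, so these counts are not read as a result about the members.

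Next above this pair came RPS4X, a body protein encoded on the X chromosome, with a log2 fold change in Huh-7 of 1.38 ± 0.108, and RPS3A, a platform protein at the exit of the message channel, with 1.41 ± 0.112. RPS27A, translated as a fusion of ubiquitin to a head protein, had 432, 376 and 383 TMM-scaled CPM in knockout, against 145, 165 and 123 in wild type. The groups did not overlap, and its log2 fold change was 1.46 ± 0.113 (SE; edgeR adjusted p = 1.99e-13). The sign turned with offsets for deposited length, at -0.28 (adjusted p = 0.00358), while offsets for GC content and deposited length gave 0.54 and those with coding-transcript length 1.75. RPS3A was at -0.16 with length offsets (adjusted p = 0.107). FAU, which encodes a ubiquitin-like protein fused to a ribosomal protein of the body, had 2583, 2597 and 2399 TMM-scaled CPM in knockout, against 576, 585 and 535 in wild type. Its groups stood apart as well, with a log2 fold change of 2.16 ± 0.108 (SE; edgeR adjusted p = 3.49e-18), and with offsets for GC content and deposited length it was -0.31 (adjusted p = 3.93e-05). RPS23, which reaches into the decoding site, had a log2 fold change of 1.61 ± 0.111. By position in the subunit, the 12 head proteins had a median log2 fold change of 2.11 (1.46 to 2.74) and the 16 body and platform proteins 2.08 (0.76 to 2.69). In 14 members, among them RPS2, RPS3A, RPS6, RPS9, RPS27A, RPS29 and FAU, exons overlap those of another annotated gene that is no small RNA, and the strand setting of the counting is not given in the sources used here.

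**Figure D3:**
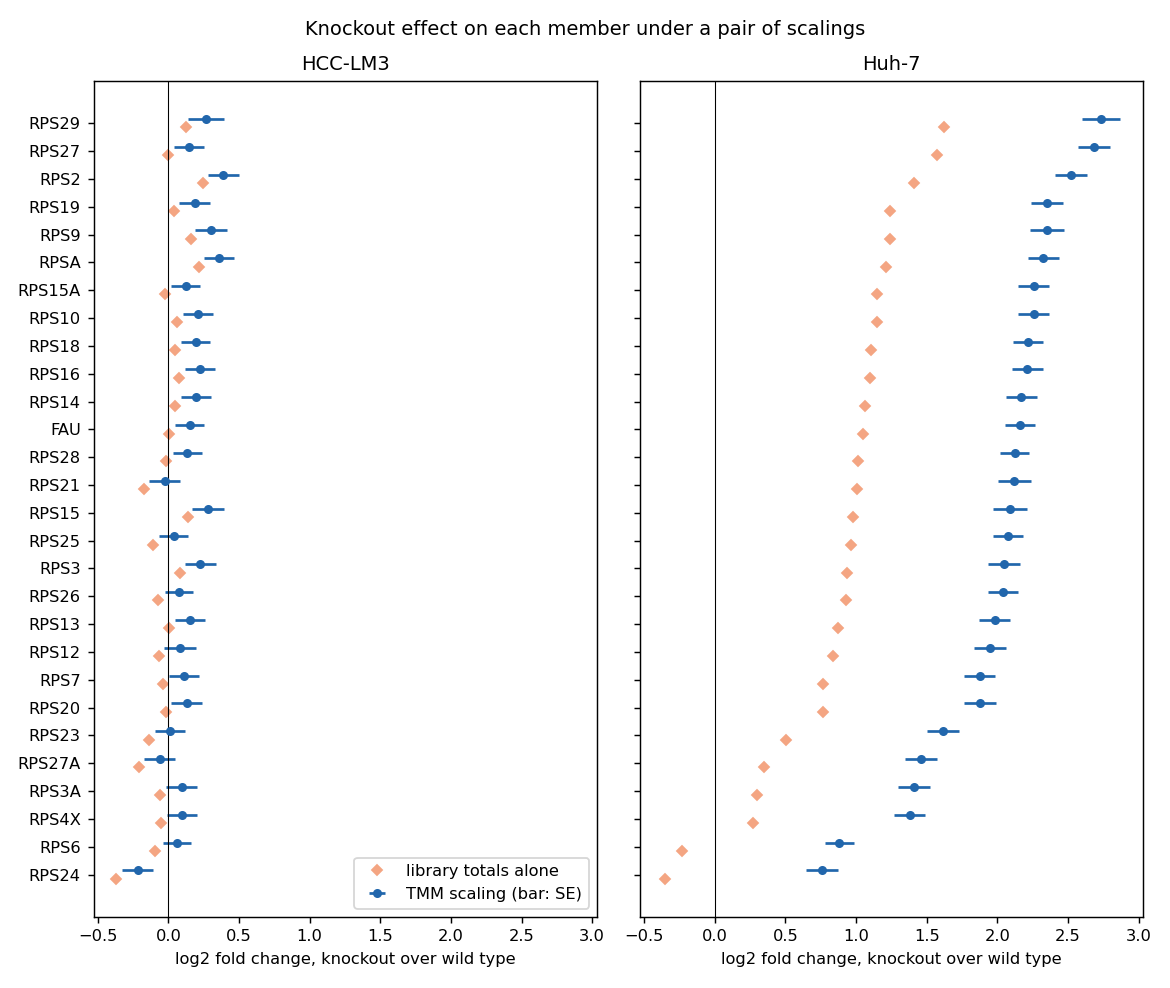
Log2 fold change, knockout over wild type, of each member in HCC-LM3 (left) and Huh-7 (right), under TMM scaling (blue, bar: SE) and under library totals alone (orange), ordered by the Huh-7 value. In Huh-7 the TMM values run from 0.76 for RPS24 to 2.74 for RPS29 and the library-total values put RPS24 and RPS6 below 0; in HCC-LM3 all values lie between -0.37 and 0.39.

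Scaled to the members' own summed counts, in place of the library total and its TMM factor, the members did not all keep their share of the set in Huh-7. Members that differ must fall on both sides of their own sum, so the counts each way depend on this reference. Relative to that sum 4 members rose (RPS29 by 0.48, RPS27 by 0.43, RPS2 by 0.27 and RPS19 by 0.10 on the log2 scale) and 18 fell, where 0.405% of all genes were called higher and 87.2% lower. The largest relative falls were those of RPS24 (-1.49 ± 0.0916, SE; edgeR adjusted p = 5.76e-10), RPS6 (-1.37 ± 0.0722; 1.11e-10) and RPS4X (-0.87 ± 0.0560; 9.93e-10). RPS3A, RPS27A and RPS23 followed with relative changes of -0.84, -0.79 and -0.64. The sum is weighted towards abundant members such as RPS2 and RPS27: with the members' geometric mean in its place, 13 were called higher (background 1.35%) and 7 lower (background 82.6%). With the sum and offsets for GC content and coding-transcript length, 10 were higher (background 2.58%) and 10 lower (background 81.0%). In HCC-LM3, RPS2 (0.19) and RPSA (0.16) rose relative to the sum and RPS24 (-0.43), RPS27A (-0.27), RPS21 (-0.22) and RPS25 (-0.17) fell, where 3.71% of all genes were called higher and 19.4% lower. RPS24 thus had the most negative relative value of the 28 members in both lines without offsets. With offsets for GC content and deposited length its relative value was 0.52 in Huh-7 (adjusted p = 0.000814) and -0.13 in HCC-LM3 (adjusted p = 0.410), and with coding-transcript length -0.55 in Huh-7 (adjusted p = 4.22e-06) and -0.16 in HCC-LM3 (adjusted p = 0.160). The lowest members were then RPS15 in Huh-7 and RPS21 in HCC-LM3, with either length.

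**Figure D4:**
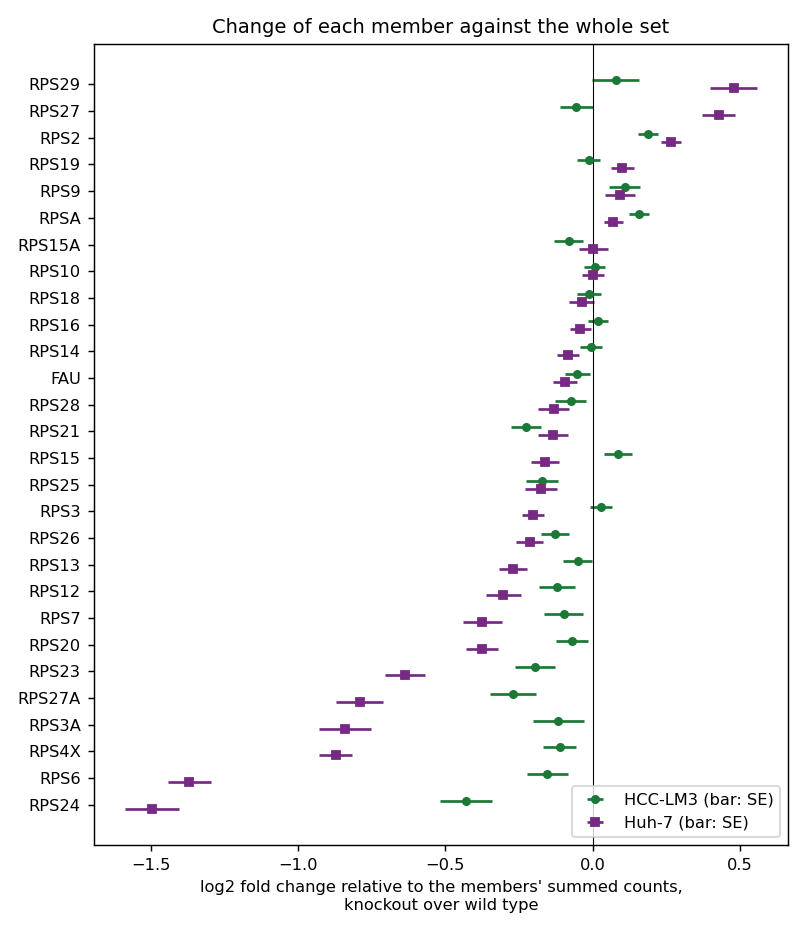
Log2 fold change of each member relative to the summed counts of all 28, knockout over wild type, in HCC-LM3 (green circles, upper of each pair) and Huh-7 (purple squares, lower), with SE bars. Values near 0 mean that a member kept its share of the set; in Huh-7 they run from -1.49 for RPS24 to 0.48 for RPS29.

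Within the set, the response went with the base composition of the transcripts. The 5 members with transcripts under 46% GC (RPS3A, RPS6, RPS23, RPS24 and RPS27A) had a median log2 fold change of 1.41 in Huh-7, beside -1.69 for the other coding genes in that GC range. The 5 members at 55% GC and over (RPS2, RPS9, RPS15, RPS19 and FAU) had a median of 2.35, beside 0.61 for other genes. Across the 28 members, Pearson's r of the log2 fold change with transcript GC was 0.62 in Huh-7 and 0.65 in HCC-LM3 (Spearman's rho 0.66 and 0.65), as a description of genes that share libraries and are not independent. In HCC-LM3 the members under 46% GC had a median of 0.01, beside -0.31 for other coding genes. At 55% GC and over the HCC-LM3 medians were 0.28 for the members and 0.26 for other coding genes. In both lines the other coding genes thus also lay higher at higher GC. The members' coding transcripts are short, at 359 to 1526 bases. The 3 members under 500 bases, RPS13, RPS21 and RPS27, had a median of 2.12 in Huh-7 beside 1.69 for 113 other genes of that length, and the 21 members of 500 to under 1000 bases had 2.16 beside 0.36 for 3182 other genes. How much of the response these properties of the libraries account for was not tested beyond the offsets given above.

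**Figure D5:**
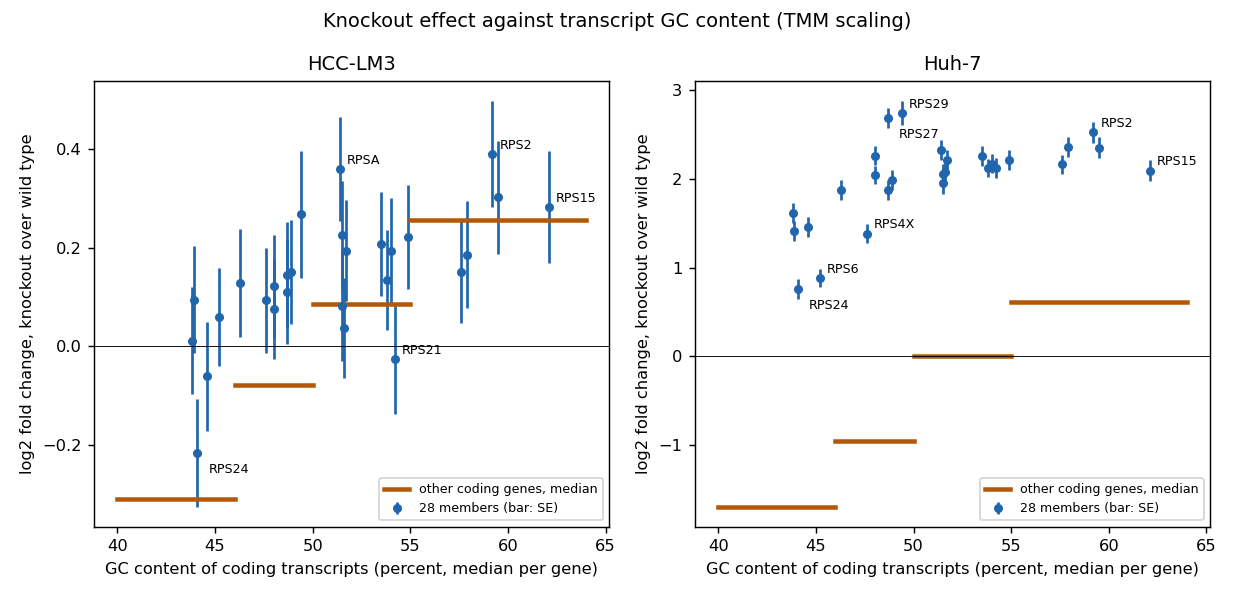
Log2 fold change, knockout over wild type (TMM scaling), of each member against the GC content of its coding transcripts in percent (blue points, bar: SE), with the median of all other coding genes in 4 GC ranges (brown lines). In both lines the members lie higher at higher GC, and in Huh-7 every member lies above the line of its range. The outer brown lines stand for all genes under 46% and for all at 55% and over.

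In HCC-LM3 few members differed between knockout and wild type. Under TMM 3 of 28 rose and 0 fell, where 14.0% of all genes were called higher and 12.9% lower; with library totals alone 2 were higher (RPSA and RPS2, background 7.25%) and RPS24 was lower (background 20.7%). In these fits the share of members called was not above that of all genes. In edgeR 7 members had an unadjusted p under 0.05, all with positive log2 fold changes. No share of all genes is given at an unadjusted p under 0.05. The unadjusted counts in this paragraph are therefore not read as a result about the members. DESeq2 and limma-voom each called 4 higher and 0 lower (background 15.8% and 11.7% in DESeq2, 15.5% and 14.3% in limma-voom). The median log2 fold change was 0.14 (-0.22 to 0.39), beside 0.00 over all genes, and with library totals -0.01 beside -0.12. The count depended on single wild-type libraries: without replicate 1, 19 members were called higher, where 18.7% of all genes were called higher and 17.3% lower. Without wild-type replicate 2 or replicate 3 edgeR called 0, with 2 higher and 1 lower at an unadjusted p under 0.05 in each case. The background was then 8.53% higher and 8.14% lower without replicate 2, and 7.82% higher and 8.28% lower without replicate 3. Without knockout replicate 3, only 1 member was called (background 8.99% higher, 8.67% lower). With offsets for GC content and deposited length, 9 members were called higher (background 9.59%) and RPS21 lower (background 8.51%). With coding-transcript length, 3 were called higher (background 8.31%) and RPS21 lower (background 7.66%).

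RPS2 had 3154, 3196 and 3439 TMM-scaled CPM in HCC-LM3 knockout, against 2950, 2308 and 2214 in wild type. All knockout libraries were higher, by a log2 fold change of 0.39 ± 0.108 (SE; edgeR adjusted p = 0.00707). It was 0.19 with offsets for GC content and deposited length (adjusted p = 0.00762) and 0.18 with coding-transcript length (adjusted p = 0.0578), and the call was lost without wild-type replicate 2 (0.33, adjusted p = 0.0509) or replicate 3 (0.30, adjusted p = 0.0715). RPSA, also known as a laminin-binding protein, had 2244, 2221 and 2345 TMM-scaled CPM in knockout, against 2078, 1608 and 1620 in wild type. It too showed no overlap, with a log2 fold change of 0.36 ± 0.105 (SE; edgeR adjusted p = 0.0105), and its call was lost without knockout replicate 3 (adjusted p = 0.0562), wild-type replicate 2 (0.0830) or wild-type replicate 3 (0.0816). Only these 2 members had knockout values above all wild-type values, where 20.5% of all genes did. RPS9, at the entry of the message channel, had 690, 729 and 772 TMM-scaled CPM in knockout, against 744, 516 and 518 in wild type. Its groups overlapped through wild-type replicate 1, and its log2 fold change of 0.30 ± 0.115 (SE) lay just inside the threshold (edgeR adjusted p = 0.0487). That call was lost with library totals (0.16, adjusted p = 0.167), with offsets for GC content and deposited length (0.08, adjusted p = 0.411) or coding-transcript length (0.10, adjusted p = 0.459), with the comparison fitted alone (0.28, adjusted p = 0.119), and without any 1 library other than wild-type replicate 1.

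Among members without a call in HCC-LM3, RPS15 had a log2 fold change of 0.28 ± 0.113 (edgeR adjusted p = 0.0615). RPS24 had 342, 287 and 380 TMM-scaled CPM in knockout, against 439, 352 and 382 in wild type. The groups overlapped, with a log2 fold change of -0.22 ± 0.109 (edgeR adjusted p = 0.144). With library totals alone, RPS24 had 445, 377 and 482 CPM in knockout, against 584, 525 and 575 in wild type, where all knockout libraries were lower (log2 fold change -0.37, edgeR adjusted p = 0.0101). RPS6 had a log2 fold change of 0.06 ± 0.0994, RPS27A of -0.06 ± 0.110, RPS21 of -0.03 ± 0.112, RPS23 of 0.01 ± 0.108 and FAU of 0.15 ± 0.104, none past the threshold. In TPM, 10 members, RPS6, RPS24 and RPS27A among them, stood lower in all HCC-LM3 knockout libraries, 2 (RPSA and RPS2) stood higher and 16 overlapped. Here too no share of all genes apart in TPM is given, so the counts describe the members alone.

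The knockout effects differed between the lines for every member under TMM scaling. The effect in HCC-LM3 minus that in Huh-7 was negative and called in 28 of 28 members, where 23.9% of all genes were called lower and 37.7% higher, and in 26 of 28 with library totals alone (background 9.52% lower, 57.5% higher), the exceptions being RPS6 at 0.14 and RPS24 at -0.01. The median difference was -1.97 beside 0.39 over all genes, with the largest for RPS27 (-2.54 ± 0.155, SE; edgeR adjusted p = 2.18e-15) and the smallest for RPS6 (-0.82 ± 0.141; 5.48e-06). Scaled to the members' sum, 11 members had a higher and 2, RPS27 and RPS29, a lower relative effect in HCC-LM3 than in Huh-7, where 77.0% of all genes were called higher and 0.683% lower. With offsets for GC content and deposited length, 18 were called lower (background 14.1%) and 2 higher (RPS15 at 0.38 and FAU at 0.21, background 36.7%), with a median of -0.35. With coding-transcript length all 28 were called lower (background 18.3%, and 36.0% higher), with a median of -1.21.

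Between the untreated lines members were called in both directions, as were all tested genes. Which direction held more members turned with the offsets. The counts that follow are therefore not read as a result about the members. In wild-type HCC-LM3 relative to wild-type Huh-7, 10 members were higher and 16 lower under TMM, where 41.8% of all genes were called higher and 41.0% lower; with library totals 12 were higher and 14 lower (background 51.0% and 32.8%), and relative to the members' sum 14 were higher and 14 lower (background 50.2% and 32.0%). Offsets for GC content and deposited length gave 13 higher and 9 lower (background 40.2% and 41.9%), and those with coding-transcript length 8 higher and 15 lower (background 40.3% and 41.8%). RPS24 showed the largest positive value under TMM, with 439, 352 and 382 TMM-scaled CPM in wild-type HCC-LM3, against 105, 120 and 95.5 in wild-type Huh-7. The groups stood apart by a log2 fold change of 1.87 ± 0.113 (SE; edgeR adjusted p = 2.06e-16). RPS3A (1.71 ± 0.112) and RPS27A (1.51 ± 0.113) were the next highest. The lowest values were those of RPS28, a head protein at the message exit (-1.66 ± 0.103), RPS15, a head protein near the decoding site (-1.48 ± 0.115), and RPS9 (-1.41 ± 0.117). With offsets for GC content and deposited length, RPS25 was highest at 1.68, RPS24 was at 1.20, RPS15 at -0.22 and RPS9 at -0.31, and the lowest were RPS28 at -1.27, RPS29 at -1.23 and RPS26 at -1.10. In TPM RPS24 had a mean of 1934 ± 82.0 in wild-type HCC-LM3 and 304 ± 41.5 in wild-type Huh-7 (SD, n = 3 each). Taken as HCC-LM3 minus Huh-7, which sets the sign, Pearson's r with transcript GC was -0.75 across the 28 members (Spearman's rho -0.76). The 5 members under 46% GC had a median of 1.51, beside 0.56 for other coding genes in that range. At 55% GC and over the 5 members had -0.96, beside -0.70 for other coding genes.

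The other lists are read against the same shares of all genes: 31.7% higher and 43.2% lower in Huh-7 under TMM (12.1% and 65.3% with library totals), and 14.0% higher and 12.9% lower in HCC-LM3 (7.25% and 20.7%). No values with offsets for GC content or length are given for these lists. Under TMM in Huh-7, 6296 other coding genes with transcripts of 2000 bases and over had a median log2 fold change of -1.25. Of 47 large-subunit protein genes, 46 rose and 0 fell in Huh-7 knockout under TMM in edgeR (median 2.08; none lower at an unadjusted p under 0.05), and 41 were higher and 3 lower with library totals. Examples are RPL35A (2.56 ± 0.115) and RPLP0 (2.52 ± 0.110), a stalk protein. In HCC-LM3, 12 of the 47 rose and 0 fell (median 0.16), such as RPL13 (0.55 ± 0.116), while library totals gave 7 higher and 5 lower. DESeq2 called 15 and limma-voom 16 higher in HCC-LM3 and neither called any lower. Their share of counts was 10.7 to 11.0% in Huh-7 knockout, against 4.82 to 5.29% in Huh-7 wild type.

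Of 32 tested factors that assemble the small subunit, 9 rose and 18 fell in Huh-7 under TMM (median -0.62), and 4 were higher and 25 lower with library totals, where 43.2% and 65.3% of all genes were called lower. LTV1, an export factor of the pre-subunit, fell by 2.85 ± 0.273 on the log2 scale in Huh-7 and by 0.78 ± 0.190 in HCC-LM3, and RIOK2, a kinase of late maturation, by 2.25 ± 0.319 in Huh-7 and by 1.01 ± 0.203 in HCC-LM3. TSR3, which modifies the ribosomal RNA, rose by 2.02 ± 0.108 in Huh-7. In HCC-LM3, 5 of the 32 rose and 9 fell, and with library totals 2 were higher and 15 lower. Among 17 regulators of TOP messages, 5 rose and 12 fell in Huh-7 under TMM (median -1.43; 3 and 13 with library totals), beside the same shares. MTOR fell by 2.82 ± 0.131 and LARP1 by 2.74 ± 0.111 in Huh-7, and RPS6KB2, a kinase that phosphorylates RPS6, rose by 1.77 ± 0.0980. RPS6KB1, another S6 kinase of this list, went the other way, at -2.04 ± 0.252 in Huh-7 and -0.65 ± 0.165 in HCC-LM3. In HCC-LM3 RPS6KB2 was at 0.35 ± 0.0975. In HCC-LM3 neither MTOR (-0.05 ± 0.0997) nor LARP1 (0.20 ± 0.0983) passed the test, and 4 regulators rose and 4 fell under TMM (3 and 7 with library totals).

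Of 19 other genes with TOP starts, 9 rose and 7 fell in Huh-7 under TMM (median 0.21), and 4 were higher and 13 lower with library totals. EEF1G, an elongation factor subunit, rose by 2.05 ± 0.110 and PABPC1, the poly(A)-binding protein, fell by 2.58 ± 0.112. In HCC-LM3, 6 rose and 3 fell under TMM (4 and 5 with library totals), with EEF2 at 0.46 ± 0.103 and NPM1 at -0.46 ± 0.101. Of 16 genes of ribosome stress responses, 6 rose and 8 fell in Huh-7 (median -0.15, and 2 and 13 with library totals), where 31.7% of all genes rose and 43.2% fell. CDKN1A, a p53 target that halts the cell cycle, was at 1.43 ± 0.106 (0.33 with library totals) and MDM2, which restrains p53, at -2.50 ± 0.170. In the same list TP53I3 (1.85 ± 0.103) and BBC3 (0.85 ± 0.172) also rose, while ZMAT3 (-2.585 ± 0.341) and SESN1 (-1.93 ± 0.316) fell. The activity of p53 was not tested. In HCC-LM3, 4 of these rose and 2 fell under TMM (1 and 4 with library totals), SESN2 among those that rose (0.93 ± 0.130).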

How the data were processed

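RNA sequencing was done on total RNA extracted with TRIzol, with 1 µg per library and an Illumina NovaSeq instrument, per the labels' protocols. The authors deposited, per gene, expected counts (7.49 to 13.3% of the values of a library were not whole numbers) and TPM values for the 12 libraries. The submitters' processing notes name Bowtie 0.12.2 with mm8 and mm9, which are mouse builds, although the cells and gene identifiers are human. Counter, strand setting and human build: not given in the sources used here. Estimated counts, rounded to integers, entered edgeR 4.0.16 (R 4.3.3): filterByExpr, TMM, a robust quasi-likelihood fit with 1 mean per group (8 residual degrees of freedom), Benjamini-Hochberg adjustment over the 16537 genes, two-sided. Levels between genes were compared only in the deposited TPM. A second fit set each library size to the members' summed counts. GENCODE 29 (GRCh38) gave coordinates, transcript lengths and GC content; start windows came from RefSeq (GRCh38.p14). Offsets per library were splines in GC content and length (5 degrees of freedom), centred per library. The fit was tested on simulated data.

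The alternatives were DESeq2 1.42.0 (size factors and Wald test), limma-voom 3.58.1, library totals, other filters, offsets, pseudogene counts added, fits of each comparison alone, a replicate block, a threshold of 0.01 and each library left out. Members, lists and tests were chosen with earlier results of these data known. The text names, for each knockout comparison, the 4 largest and 4 smallest log2 fold changes, members at least 0.5 from the members' sum, and RPS6, RPS27A and FAU. Between wild types it names the 3 largest each way. From the lists it names up to 3 called genes each, with MTOR, LARP1 and others repeated in the second line. RPS6KB1, TP53I3, BBC3, ZMAT3 and SESN1 were added beside related genes of their lists.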

Additional observations from a re-analysis of the deposited data

Results flagged for a closer look

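The difference between the lines in the knockout effect, HCC-LM3 minus Huh-7, passed edgeR's interaction test for all 28 members, and it is listed for that reason. The log2 differences were -2.54 for RPS27, -2.47 for RPS29, -2.17 for RPS19, -2.13 for RPS2 and -2.01 for FAU. They were -1.60 for RPS23, -1.52 for RPS27A, -1.31 for RPS3A, -1.29 for RPS4X, -0.97 for RPS24 and -0.82 for RPS6. No explanation of these differences was tested.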

How the results depend on the processing

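In Huh-7 knockout 23 to 28 members were called under each of the 25 alternatives. Of these, length offsets gave 21 higher and 2 lower (RPS6 and RPS27A), GC and length offsets 20 higher and 3 lower, and library totals 26 higher and 2 lower. The interaction gave 17 calls with length offsets (16 lower and 1 higher) and 20 or more otherwise. In HCC-LM3 the 3 calls became 8 with length offsets, 10 with GC and length offsets, 1 at an adjusted p under 0.01, and 0 to 19 when 1 library was left out. No share of all genes is given for length offsets in HCC-LM3 and in the interaction. None is given for the threshold of 0.01 or the replicate block, so those counts are not read as a result about the members. No cause was tested for the changes listed here. The reversals given here are those of the members picked by the naming rule in each comparison, so they are not a full list. Library totals reversed RPS23 (-0.14) and RPS6 (-0.092) in HCC-LM3 and RPS24 (-0.35) and RPS6 (-0.23) in Huh-7. They also reversed the difference between the lines for RPS6 (0.14). Further signs turned in HCC-LM3 outside the members so picked, such as RPS25 (-0.11), RPS26 (-0.071) and RPS3A (-0.056), none past the threshold on either scale. Length offsets reversed RPS6 (-0.22), RPS3A (-0.16) and RPS27A (-0.28) in Huh-7 and the difference between the lines for RPS6 (0.26) and RPS27A (0.18). GC and length offsets reversed RPS15 (-0.00074), RPS24 (0.035), RPS27A (0.18) and FAU (-0.10) in HCC-LM3, FAU in Huh-7 (-0.31) and the difference for FAU (0.21). Outside the members so picked, they also reversed RPS15 (-0.39), RPS21 (-0.31) and RPS12 (-0.061) in Huh-7. In HCC-LM3 they turned RPS25 (-0.078), RPS19 (-0.027) and RPS12 (-0.016) as well. The difference between the lines also turned for RPS15 (0.38), RPS21 (0.062), RPS9 (0.059), RPS12 (0.045) and RPS16 (0.039). With coding-transcript length, an alternative added after seeing the data because the deposited length of some members exceeds their coding transcripts, RPS24 (0.037), RPS27A (0.19) and FAU (-0.067) were reversed in HCC-LM3. Leaving out 1 library gave -0.15 to 0.036 for RPS27A, -0.12 to 0.14 for RPS21 and -0.065 to 0.12 for RPS23 in HCC-LM3; RPS23 was -0.012 with each comparison fitted alone. By TPM the HCC-LM3 difference in share was -0.0035 percentage points. The replicate number as a block gave 3 calls in HCC-LM3 and 28 in Huh-7, and 5 and 20 relative to the members' sum; same-numbered libraries correlated at -0.106 to 0.083, so the numbers were not taken to pair them. The members were well above the filter on low counts in every library, and 3 libraries per group limit every test.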
